A study of Mus musculus with 22 samples.

Results

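The 4 libraries of primitive endoderm (PrE) cells that had been obtained from mouse embryonic stem cells (ESCs) under the EZH2 inhibitor EPZ-6438 were compared directly with the 2 libraries of C57 PrE stem cells. These 6 libraries were chosen by their column names among 22 mouse RNA-seq libraries in 10 groups. EPZ.iPrE1 and EPZ.iPrE2 are lines derived from E14 cells with a wild-type genotype, and C57.PrESC is a wild-type line labelled only C57. All 3 were in PrE stem cell culture when RNA was taken, with 2 libraries each. The labels do not say how long the EPZ lines had been exposed to the inhibitor, whether it was still present, or whether each line was a single clone. A further 4 libraries of ESCs served as a second contrast between the same labelled parents, 2 of TG2A.NG.PB.ESC (E14, wild-type) and 2 of C57.ESC (C57, wild-type). With 2 lines on one side and 1 on the other, the parent cell line, the way of derivation and the individual line cannot be told apart. Nothing states that replicates were separate cultures, so p-values measure only the spread between libraries within groups, which may be technical. That spread was estimated over all 22 libraries in 10 groups and not from the 6 PrE libraries alone.

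PrE is the extraembryonic lineage that separates from the epiblast in the blastocyst. The transcription factors GATA6, SOX17 and GATA4 specify it, FGF signalling through ERK and PDGFRA supports it, and its descendants, the parietal and visceral endoderm, lay down basement membrane and take up maternal nutrients through the receptors megalin and cubilin. EZH2 is the catalytic subunit of Polycomb repressive complex 2 (PRC2), which methylates histone H3 at lysine 27 and holds many developmental genes silent. The comparison asks how far PrE cells obtained from ESCs under an EZH2 inhibitor and a PrE stem cell line of another origin share a transcriptome.

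Estimated counts per library totalled 13586043 to 17762890 in the 6 PrE libraries. Levels are given as CPM, the count scaled to a common library size by TMM, first for C57.PrESC replicates 1 and 2 and then for EPZ.iPrE1 replicates 1 and 2 and EPZ.iPrE2 replicates 1 and 2. Fold changes are the mean of the EPZ coefficients minus C57.PrESC on the log2 scale, with the standard error (SE) and the adjusted p of edgeR's quasi-likelihood test over 17547 genes. Genes with an adjusted p under 0.05 were called. The sources used here do not give the counting strand, so reads of genes that overlap on opposite strands cannot be told apart, and many symbols carry fractional counts, as estimates that divide reads among genes do. Among others named here this touches Nid2 (with Rtraf), Pth1r (Myl3), Mtf2 (Tmed5), Phf1 (Cuta), Stat3 (Stat5a), Rarb (Top2b), Pfkp (Pitrm1), Ctsz (Nelfcd), Mest (Copg2), Cbx7 (Apobec3), Csf1r (Hmgxb3) and Brd2 (H2-DMa), and, with partners known only as predicted genes, Eed, Cubn, Pim1, Foxq1, Sox17 and Sall4, which are uncertain to that extent. In bulk RNA fewer cells of a type and less RNA per cell cannot be told apart.

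The parent labels were checked first. Hprt, the purine salvage gene that is deleted in the E14TG2a subline, stood at 101 and 121 CPM in C57.PrESC and at 0.384, 0, 0 and 0.461 in the EPZ libraries (log2 fold change -8.98, SE 0.38, adjusted p = 2.46e-11). It was near 0 in TG2A.NG.PB.ESC as well, at 0.520 and 0.734 CPM, against 164 and 139.7 in C57.ESC. All 6 PrE libraries expressed Y-linked genes, with Ddx3y at 158 and 149.9 CPM in C57.PrESC and at 116, 108, 33.1 and 39.7 in the EPZ libraries. C57.ESC had 0.0530 and 2.98 CPM of Ddx3y, far below C57.PrESC, so the ESC and PrE libraries labelled C57 differ in expression of this Y-linked gene, and comparisons with C57.ESC carry that difference.

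C57.PrESC replicate 2 stands apart. The summed level of 15 fibroblast markers, which feeder cells would also carry, was 33.1 CPM in replicate 1 and 2347 in replicate 2, against 217, 38.9, 79.4 and 358 in the EPZ libraries. Macrophage markers (12 genes) summed to 71.9 and 246 CPM in C57.PrESC and to 37.7, 20.6, 28.1 and 70.1 in the EPZ libraries. No fibroblast marker was at 0 in C57.PrESC replicate 2, while 2 were in replicate 1 and 0 to 2 in each EPZ library. Of the macrophage markers 5 and 0 were at 0 in the C57.PrESC libraries and 2, 6, 3 and 1 in the EPZ libraries. Vim, a mesenchymal filament gene, was at 14.2 and 789.9 and then at 66.7, 9.6, 11.7 and 101 CPM, and Fn1, fibronectin, at 20.6 and 1936 and then at 190.4, 50.8, 69.98 and 344. Both passed the test as lower in the EPZ lines (-3.11 and -2.63), but without C57.PrESC replicate 2 their values were 1.72 and 2.95, and without replicate 1 -4.08 and -3.61. Of 3527 genes called lower, 332 were at least 8 times as high in C57.PrESC replicate 2 as in replicate 1. Of the 14 fibroblast markers tested 8 were called lower and 0 higher, and without that library 4 were called higher and 0 lower. Where the call or the size of a fold change printed here depends on 1 C57.PrESC library, the value without it is given. Where the library that remains has 0 counts, such a fitted value depends on the prior count and is no bound. The part of other cells in these differences was not tested.

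**Figure D1:**
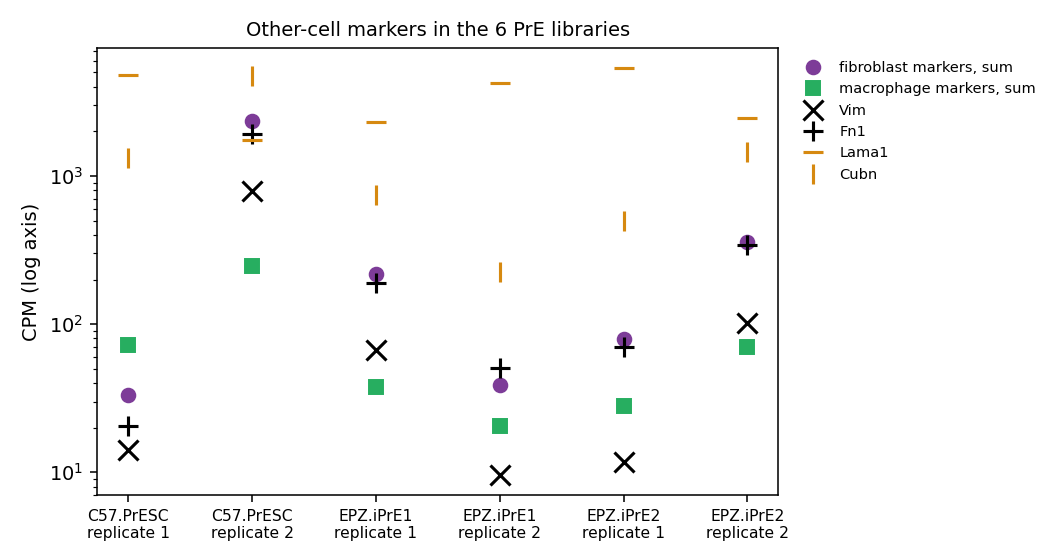
Summed fibroblast and macrophage markers and the levels of Vim, Fn1, Lama1 and Cubn in CPM on a log axis, for each of the 6 PrE libraries. The fibroblast sum reaches 2347 CPM in C57.PrESC replicate 2 and is at or below 358 in the other 5 libraries.

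Across the transcriptome 7150 genes, 40.7% of those tested, were called, 3623 higher (20.6%) and 3527 lower (20.1%) in the EPZ lines, and 1899 and 1624 of them by at least 2-fold. The called shares of 20.6% and 20.1% are the background of every list count below. The 4 EPZ libraries lay entirely above both C57.PrESC libraries for 4212 genes (24%) and entirely below for 3561 (20.3%). The 2 EPZ lines differed far less from each other, with 686 genes called (3.91%). Pearson correlation of log2 CPM across the tested genes, which are not independent replicates, was 0.914 to 0.938 between EPZ and C57.PrESC libraries, 0.971 to 0.981 between the EPZ lines and 0.952 between the C57.PrESC replicates. Leaving out C57.PrESC replicate 2 gave 3237 higher and 2733 lower calls, and 5092 of all these were also called with every library.

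Most transcription factors that define PrE did not differ detectably. Of 10, 8 did not pass the test, 1 was higher and 1 lower, with a median log2 fold change of -0.01 against 0 over all genes tested. Over all genes 20.6% rose and 20.1% fell, so most genes of any kind did not pass either. Gata6 was at 305 and 306 CPM in C57.PrESC and at 321, 301, 295 and 270.3 in the EPZ libraries (log2 fold change -0.04, SE 0.43, adjusted p = 0.996), and its groups overlapped. Sox17 was at 263 and 139 and at 224, 250.4, 254 and 193 CPM (log2 fold change 0.20, SE 0.38, adjusted p = 0.729), again overlapping, and Foxa2, Foxq1, Hnf4a and Hhex overlapped as well. Gata4, on chromosome 14, was at 443 and 303 and then at 211, 265, 356 and 269 CPM (log2 fold change -0.45, SE 0.44, adjusted p = 0.444). These misses do not show that the levels are equal, since their SE of 0.28 to 0.46 leaves room for moderate differences. Sox7, an F-group SOX factor of PrE, was lower in all 4 EPZ libraries, at 123 and 138 against 56.6, 49.9, 61.1 and 70.1 CPM (log2 fold change -1.14, SE 0.31, adjusted p = 0.00694), and lies on chromosome 14, whose genes were lower as a group. Eomes was low everywhere, at 0.474 and 1.69 and 3.23, 2.42, 1.92 and 2.3 CPM, and its call (log2 fold change 1.15, SE 0.44, adjusted p = 0.0456, 0.54 and not called without C57.PrESC replicate 1 and 2.36 without replicate 2) was lost under 10 of the 13 other settings.

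**Figure D2:**
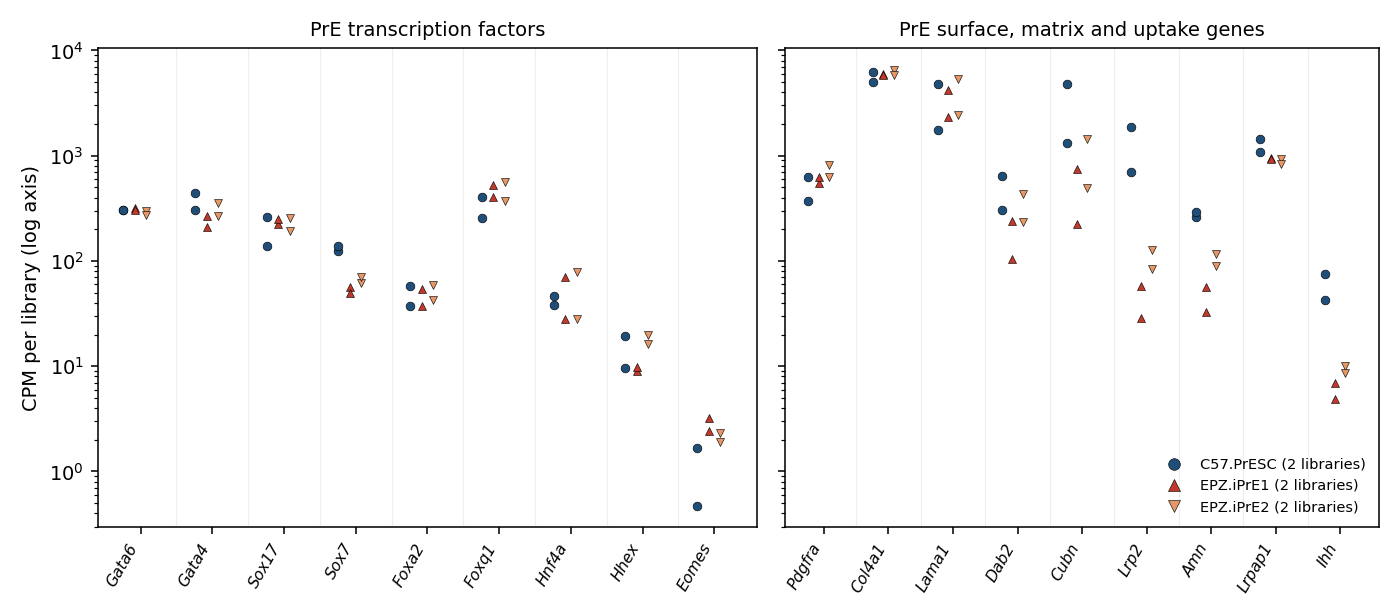
CPM on a log axis for 9 PrE transcription factors (left) and PrE surface, matrix and uptake genes (right), 1 point per library. Gata6, Sox17, Foxa2 and Col4a1 overlap between the lines, while Lrp2, Amn and Ihh are lower in all 4 EPZ libraries than in both C57.PrESC libraries.

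Among genes of the basement membrane, the sheet that PrE secretes, the 2 nidogen genes differed in opposite directions while Col4a1 and Lama1 did not pass. Over all genes 20.6% rose and 20.1% fell, and the counts of this list with every library are near those shares. Col4a1, the collagen IV chain that is the most abundant of these transcripts in CPM, was at 6284 and 5058 and 5925, 5856, 6529 and 5815 CPM (log2 fold change 0.09, SE 0.29, adjusted p = 0.872), and Lama1, the laminin alpha chain, at 4842 and 1746 and 2323, 4226, 5329 and 2452 (log2 fold change 0.12, SE 0.44, adjusted p = 0.896, and 1.04, again not called, without C57.PrESC replicate 1). Of 14 genes 4 rose and 3 fell, with a median of 0.14, and without C57.PrESC replicate 2 the counts were 1 and 3. Nid1, the linker nidogen 1, was at 137 and 232 CPM in C57.PrESC and 525, 473, 451 and 506 in the EPZ lines, all above (log2 fold change 1.41, SE 0.28, adjusted p = 7.04e-04). Nid2, its paralogue, went the other way, at 939.5 and 747 against 451, 538, 257 and 236 CPM (log2 fold change -1.27, SE 0.10, adjusted p = 4.42e-08). It too lies on chromosome 14, overlaps Rtraf, and was lower in EPZ.iPrE2 than in EPZ.iPrE1 (adjusted p = 1.02e-04). Sparc, a collagen-binding matrix protein, was at 3823 and 3737 and 2233, 2339.6, 2707 and 2473 CPM, lower in all EPZ libraries (log2 fold change -0.64, SE 0.10, adjusted p = 7.65e-05).

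Genes of the endocytic receptor complex were lower in the EPZ lines. Lrp2, which encodes megalin, was at 702 and 1867 CPM in C57.PrESC and at 29, 58.1, 127 and 84 in the EPZ lines (log2 fold change -4.25, SE 0.31, adjusted p = 2.23e-08, and -3.37 without C57.PrESC replicate 2). The lower C57.PrESC library exceeded every EPZ library. ESCs held 76.3, 95.4, 98.7 and 78.3 CPM, in the range of the EPZ lines, with no difference detected between the ESC lines (log2 fold change 0.04, adjusted p = 0.941), and the PrE difference departed from the ESC difference (adjusted p = 6.15e-06). Amn, the membrane anchor of cubilin, followed at 259 and 291 against 56.3, 32.5, 88.5 and 115 CPM (log2 fold change -2.03, SE 0.28, adjusted p = 2.43e-05), with no overlap. Cubn, cubilin itself, varied within each line, at 1324 and 4747 and 742, 224, 494 and 1451 CPM, so that the groups overlapped. Its call (log2 fold change -2.15, SE 0.83, adjusted p = 0.0474, -2.79 without C57.PrESC replicate 1 and -0.94 and not called without replicate 2) was also lost without EPZ.iPrE1 replicate 2 and without EPZ.iPrE2 replicate 1. Lrpap1, the chaperone of megalin, was lower by a smaller step (log2 fold change -0.48, SE 0.13, adjusted p = 0.00611, and -0.26 and not called without C57.PrESC replicate 1), and Dab2, the adaptor of both receptors, did not pass (log2 fold change -0.98, SE 0.40, adjusted p = 0.0578), though without C57.PrESC replicate 1 it was called lower (-1.42), and without replicate 2 its value was -0.34. Of the 12 surface and uptake genes 1 rose and 6 fell, with a median of -0.81. The riser was Fst, the activin-binding protein follistatin, at 0.880 and 1.92 and 4.15, 2.5, 11.3 and 22.5 CPM (log2 fold change 2.4, SE 0.53, adjusted p = 0.00164, and 3.09 without C57.PrESC replicate 2), which was also higher in EPZ.iPrE2 than in EPZ.iPrE1 (adjusted p = 0.0189). Pdgfra, the receptor that marks PrE, overlapped at 623 and 368 and 554, 628, 821 and 632 CPM (log2 fold change 0.40, SE 0.31, adjusted p = 0.326).

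Of 11 parietal endoderm genes tested 1 rose and 7 fell, and of 12 visceral endoderm genes 3 rose and 2 fell, with medians of -0.65 and 0.51. Over all genes 20.6% rose and 20.1% fell, and the visceral counts are near those shares. Without C57.PrESC replicate 2 the parietal counts were 0 and 4, and without replicate 1 the visceral counts were 1 and 3. Ihh, the hedgehog ligand of visceral endoderm, was at 75.8 and 42.7 CPM against 4.84, 6.94, 10.1 and 8.69, with no overlap (log2 fold change -2.99, SE 0.35, adjusted p = 4.55e-06). Pth1r, the parathyroid hormone receptor that marks parietal endoderm, was at 305 and 173 against 55.4, 77.9, 92.9 and 65.7 (log2 fold change -1.72, SE 0.22, adjusted p = 1.27e-05). In ESCs Ihh was at 0.318, 0.101, 0.208 and 1.05 CPM and Pth1r at 4.29, 5.96, 1.51 and 1.47. Apob and Apom, apolipoproteins of visceral endoderm, were called higher but at low levels, at 1.29 and 1.45 and 10.9, 2.11, 2.33 and 10.7 CPM for Apom (log2 fold change 2.24, SE 0.62, adjusted p = 0.00851, and 2.16 and not called without C57.PrESC replicate 1), and Apob rose from 0 counts in C57.PrESC by at least 3.07-fold, with 0.307, 0.0780, 0.0687 and 0.658 CPM in the EPZ lines. The Apob call was lost without either C57.PrESC library. Bmp2, a ligand of visceral endoderm, was at 11.5 and 8.73 and 19.7, 24.7, 47.9 and 26.3 CPM, higher in all EPZ libraries (log2 fold change 1.5, SE 0.35, adjusted p = 0.00288).

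Of 15 Wnt genes 5 rose and 3 fell, against 20.6% and 20.1% over all genes, with a median of 0.37, and without C57.PrESC replicate 2 the counts were 5 and 1. Sp5, a transcription factor induced by beta-catenin, was at 0.406 and 0 CPM in C57.PrESC and at 9.22, 14.2, 13 and 8.36 in the EPZ lines (log2 fold change 5.82, SE 0.82, adjusted p = 2.93e-05, 10.71 without C57.PrESC replicate 1 and 4.77 without replicate 2). Nkd1, an inhibitor that Wnt signalling induces, was at 3.86 and 6.34 against 34.9, 54.8, 79.3 and 44.3 (log2 fold change 3.36, SE 0.40, adjusted p = 5.95e-06). Axin2, the negative regulator used as the standard readout and named here after its values were seen, showed a smaller difference, at 56.5 and 50.4 against 93.5, 118, 115 and 77.2 (log2 fold change 0.92, SE 0.24, adjusted p = 0.00562), and Tcf7, a beta-catenin partner, stood at 25.6 and 29.7 against 64.1, 82.1, 79.9 and 66.7 (log2 fold change 1.4, SE 0.21, adjusted p = 5.41e-05). For these 4 no EPZ library fell within the C57.PrESC range. Sp5 and Nkd1 were low in all 4 ESC libraries, at 0.530, 0.404, 1.61 and 0.524 and 1.7, 2.12, 2.13 and 0.524 CPM. Other members went down: Wnt7b, a ligand, was at 8.33 and 4.3 against 0.461, 0.156, 0.0687 and 0.197 (log2 fold change -4.9, SE 0.76, adjusted p = 8.23e-05).

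The upstream sequence of Sp5 is shown because it carries a match to the letters that TCF/LEF factors, the partners of beta-catenin, are known to prefer. The window holds the 250 bases before the RefSeq start on GRCm38.p6, at chr2:70474673-70474922 on the plus strand, and capitals mark CTTTGATC, which begins 104 bases before the start.
Sp5: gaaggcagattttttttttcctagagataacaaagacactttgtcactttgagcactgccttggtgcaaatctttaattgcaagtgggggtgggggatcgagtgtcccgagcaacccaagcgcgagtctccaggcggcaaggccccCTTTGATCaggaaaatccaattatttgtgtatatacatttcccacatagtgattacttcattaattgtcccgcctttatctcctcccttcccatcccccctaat
Searched on both strands, CTTTGATC was found in 0.801% of 32851 such windows. It was in 0.557% of the windows of genes called higher by at least 2-fold and in 0.428% of those called lower, against 0.674% over tested genes with a window.

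Part of the LIF and STAT3 list was higher as well, where 20.6% of all genes rose and 20.1% fell. Socs3, the feedback inhibitor that STAT3 induces, was at 28.2 and 11.6 CPM in C57.PrESC and at 75.6, 135, 165 and 91.6 in the EPZ lines, with 166, 105, 125 and 132 in ESCs (log2 fold change 2.55, SE 0.34, adjusted p = 1.48e-05, and 3.33 without C57.PrESC replicate 1). Stat3 itself was at 76.2 and 66.4 and 91, 109, 132 and 121 (log2 fold change 0.66, SE 0.10, adjusted p = 8.11e-05), with no overlap but a small step. Pim1, a kinase gene that STAT3 induces, was at 10.6 and 6.34 and then at 25, 44.9, 18.5 and 10.1, with EPZ.iPrE2 replicate 2 just below the higher C57.PrESC library (log2 fold change 1.41, SE 0.27, adjusted p = 4.82e-04). Of 10 LIF and STAT3 genes 4 rose and 1 fell, with a median of 0.56, and without C57.PrESC replicate 2 it was 4 and 0. In the BMP list 6 of 12 rose and 3 fell, with the ligand Bmp4 at 0.677 and 0.640 and 5.61, 2.18, 1.99 and 2.5 CPM (log2 fold change 2.16, SE 0.42, adjusted p = 6.02e-04) and the target Id1 at 14.5 and 9.83 and 30.6, 40.2, 32.3 and 33.8 (log2 fold change 1.5, SE 0.33, adjusted p = 0.00156).

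Of 11 fibroblast growth factor genes 3 fell and 0 rose, a count near the 20.1% that fell over all genes, and without C57.PrESC replicate 2 it was 3 and 1. Fgf3, an FGF ligand, was at 22 and 16 against 7.53, 3.82, 3.23 and 2.11 CPM (log2 fold change -2.29, SE 0.28, adjusted p = 8.35e-06), and the receptors Fgfr3 (-2.43) and Fgfr4 (-1.95) were the others that fell. Of 15 ERK response genes 1 rose and 1 fell, and it was 5 and 1 without C57.PrESC replicate 2 and 1 and 2 without replicate 1. The faller was Myc, the growth-promoting transcription factor, at 25.8 and 21.1 against 5.3, 5.07, 4.74 and 6.05 CPM (log2 fold change -2.15, SE 0.18, adjusted p = 8.94e-08), while in ESCs it was higher in the E14 cells (log2 fold change 1.22, adjusted p = 1.34e-04). Of 8 YAP and TEAD targets 6 fell and 0 rose, with a median of -1.94, and 4 fell without C57.PrESC replicate 2. Ajuba, a LIM protein that restrains the Hippo kinases, was at 53.3 and 50.6 against 12, 11.5, 12.6 and 13.6 CPM (log2 fold change -2.07, SE 0.09, adjusted p = 4.97e-11) and Lats2, a Hippo kinase, at 17.5 and 19.9 against 5.15, 3.9, 3.23 and 4.08 (log2 fold change -2.2, SE 0.27, adjusted p = 8.10e-06), both on chromosome 14. Axl was among the 6 only through C57.PrESC replicate 2 (-3.29, 3.01 without it and -4.27 without replicate 1). Rarb, the retinoic acid receptor beta, also on chromosome 14, stood at 6.09 and 5.88 against 0.154, 0.702, 0.137 and 0.0658 CPM (log2 fold change -4.79, SE 0.65, adjusted p = 2.00e-05).

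Sox2 and Dppa4 were higher in the EPZ lines than in C57.PrESC and far below their levels in ESCs. Sox2 had 0.0677 and 0.0582 CPM in C57.PrESC, which is 1 count per library, and 4.3, 6.32, 9.41 and 5.53 in the EPZ lines (ratio 103, 95% counting interval 28.5 to 849.7), while ESCs had 440.4, 431, 386 and 400.1. Dppa4, a chromatin protein of pluripotent cells, was at 6.63 and 6.28 against 47.9, 40.5, 46 and 43 CPM (log2 fold change 2.78, SE 0.13, adjusted p = 7.52e-11), with 136, 106, 133 and 153 in ESCs, and its neighbour Dppa2 at 19.8 and 22.7 against 102, 74.6, 81.4 and 73.6 (log2 fold change 1.96, SE 0.18, adjusted p = 3.32e-07). Both lie on chromosome 16, whose genes were lower as a group, and their counts were partly fractional. Dppa3, a maternal-effect gene, had 0 counts in C57.PrESC and 2.99, 6.4, 4.88 and 2.17 CPM in the EPZ lines, at least 43.1-fold higher. Nanog was at 1.42 and 0.233 and 0.845, 0.234, 0.137 and 0.329 CPM and did not pass (log2 fold change -1.13, SE 0.61, adjusted p = 0.152), though without C57.PrESC replicate 2 it was called lower (-1.96), and without replicate 1 its value was 0.61. Zfp42 did not pass either, at 59.7 and 59.8 and 52.4, 56.6, 56.5 and 50.9 (log2 fold change -0.14, SE 0.11, adjusted p = 0.33). Lin28a, which blocks let-7 maturation, was lower in all EPZ libraries at 624 and 322 against 60.1, 198, 105 and 20.3 (log2 fold change -2.4, SE 0.44, adjusted p = 3.63e-04). Pou5f1 stood at 635 and 435 against 741, 801, 807 and 713 (log2 fold change 0.52, SE 0.17, adjusted p = 0.0234, and 0.28 and not called without C57.PrESC replicate 2), and Sall4, a zinc finger factor, fell at 418 and 343 against 169, 174, 231 and 209 (log2 fold change -0.97, SE 0.08, adjusted p = 8.51e-08). Of 10 core factors 5 rose and 2 fell, and without C57.PrESC replicate 2 it was 3 and 3. Of 14 naive factors 4 rose and 0 fell, against 20.6% and 20.1% over all genes. Dppa3, a naive factor at 0 counts in C57.PrESC, could not fall.

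Of 12 PRC2 genes 2 rose and 2 fell, which is no larger a share than over all genes (20.6% and 20.1%), and Ezh2, Suz12 and Eed did not pass the test. Without C57.PrESC replicate 1 the counts were 2 and 1. Ezh2 was at 118 and 131 and 137, 138, 135 and 141 CPM (log2 fold change 0.15, SE 0.14, adjusted p = 0.42), Suz12 had a log2 fold change of 0.38 (adjusted p = 0.0969) and Eed one of 0.23 (adjusted p = 0.212). Jarid2, the substrate-recognition cofactor of PRC2, was at 85.1 and 84.1 in C57.PrESC and 224, 254, 225 and 188 in the EPZ lines, with no overlap (log2 fold change 1.39, SE 0.11, adjusted p = 5.04e-08). ESCs held 719, 676, 681 and 729 CPM. Mtf2, which brings PRC2 to CpG islands, was at 122 and 107 against 203, 247, 219 and 169 (log2 fold change 0.87, SE 0.11, adjusted p = 6.68e-06), with fractional counts in every library. Epop, an accessory protein, was lower at 320.5 and 285 against 177, 231, 222 and 147 (log2 fold change -0.64, SE 0.16, adjusted p = 0.00374), as was Phf1 (-0.71, and -0.51 and not called without C57.PrESC replicate 1). Among 16 PRC1 genes 1 rose, Cbx2 (0.85), and 4 fell, led by Pcgf6 (-1.07), a subunit that silences germline genes.

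Genes that Polycomb is known to hold silent were more often higher than lower. Of 33 Hox genes 11 rose and 2 fell, with a median of 0.72, and of 35 other developmental factors 11 rose and 1 fell, with a median of 1.29 against 0 over all genes. The median of 1.29 became 1.1 when folds against 0 counts in C57.PrESC entered as bounds in place of fitted values. The shares that rose stand beside 20.6% over all genes. Members with 0 counts in both C57.PrESC libraries, such as Hoxc12, passed the filter only through other groups and could not fall. No conclusion is drawn from these shares. Without C57.PrESC replicate 2 the counts were 13 and 1 for Hox genes and 11 and 2 for the other factors, and without replicate 1 they were 9 and 3 and 8 and 2. The levels were low. The Hoxa cluster on chromosome 6 had 5 of 11 tested genes up and 0 down, and its summed level was 5.35 and 9.02 CPM in C57.PrESC and 70.5, 49.1, 38.5 and 42.1 in the EPZ lines, against 3.92, 4.29, 5.72 and 7.39 in the C57.ESC and TG2A.NG.PB.ESC libraries. Hoxa10 was at 1.02 and 3.2 against 25.5, 18.8, 13.2 and 13.3 CPM (log2 fold change 3.0, SE 0.43, adjusted p = 3.10e-05, and 4.08 without C57.PrESC replicate 2), and Hoxa13, the last gene of the cluster, at 0.203 and 0.233 against 3.46, 3.04, 2.95 and 2.5 (log2 fold change 3.73, SE 0.53, adjusted p = 4.45e-05). Hoxa11 rose beside them (4.34, 3.6 without C57.PrESC replicate 1 and 6.32 without replicate 2) but overlaps its antisense transcript Hoxa11os. Hoxc12 was at 0 counts in C57.PrESC and at 0.461, 1.09, 1.85 and 1.32 CPM in the EPZ lines, at least 12.8-fold higher. Among the other factors Msx1, a homeobox gene, was at 1.96 and 2.73 against 17.8, 22.5, 19.2 and 14.3 (log2 fold change 2.96, SE 0.41, adjusted p = 2.58e-05), and Tbx18, a T-box repressor, at 0.339 and 1.57 against 15.5, 10.8, 7.35 and 8.75 (log2 fold change 3.4, SE 0.78, adjusted p = 0.00222, 2.71 without C57.PrESC replicate 1 and 4.91 without replicate 2). Hoxc8 fell through C57.PrESC replicate 2 alone, at 0 and 1.45 and 0.0768, 0.234, 0 and 0 CPM (-4.51, 2.29 without it and -5.47 without replicate 1).

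Germline and trophoblast genes rose in part, where 20.6% of all genes rose and 20.1% fell. Members with 0 counts in both C57.PrESC libraries, such as Hand1, could not fall, so nothing is read from these shares. Of 16 germline genes 8 rose and 1 fell, and without C57.PrESC replicate 1 it was 7 and 0. Mael, which protects germ cells from transposons, was at 0 and 0.0582 against 0.845, 2.65, 1.72 and 0.395 CPM (ratio 43.7, 95% counting interval 7.84 to 1726). Rpl10l, a testis copy of a ribosomal protein gene, had 1 count in each C57.PrESC library and 38.1, 34.6, 38.2 and 39.9 CPM in the EPZ lines (ratio 604, 95% counting interval 167 to 4989), with 19.4, 13.8, 51.3 and 47.3 in ESCs. Sycp1, a protein of the meiotic synaptonemal complex, was at 0 and 0.233 against 24.6, 22.3, 22.7 and 25.2 (log2 fold change 7.5, SE 0.53, adjusted p = 1.48e-08, 6.63 without C57.PrESC replicate 1 and 11.79 without replicate 2). Of 11 trophoblast genes 6 rose and 1 fell, and it was 7 and 0 without C57.PrESC replicate 2 and 6 and 0 without replicate 1. Hand1, a basic helix-loop-helix factor of giant cells, had 0 counts in C57.PrESC and 4.84, 4.6, 1.03 and 1.84 CPM in the EPZ lines, at least 31.6-fold higher, and Cdx2 was at 0.542 and 0 and 2.99, 9.21, 2.95 and 1.38 (log2 fold change 3.78, SE 0.86, adjusted p = 0.00215, 9.09 without C57.PrESC replicate 1 and 2.74 without replicate 2). Tfap2c was at 0.271 and 0.640 and 21.9, 11.2, 0.755 and 0.592, high in EPZ.iPrE1 only, so that its EPZ.iPrE2 libraries overlapped C57.PrESC.

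Further lists showed smaller or mixed changes, beside 20.6% that rose and 20.1% that fell over all genes. Cdh1, the epithelial cadherin, was at 614 and 531 CPM in C57.PrESC and 708, 791, 1008 and 867 in the EPZ lines, all higher by a small step (log2 fold change 0.55, SE 0.10, adjusted p = 5.14e-04). Ocln, the tight junction protein occludin, fell at 7.99 and 4.07 against 0.307, 1.33, 0.618 and 0.724 (log2 fold change -3.01, SE 0.40, adjusted p = 1.69e-05), and Cldn6, a claudin of early epithelia, at 15.6 and 19.8 against 7.22, 5.07, 4.33 and 11.2 (log2 fold change -1.36, SE 0.39, adjusted p = 0.0108, and -1.17 and not called without C57.PrESC replicate 2). Of 20 junction and mesenchymal transition genes 4 rose and 8 fell, with 5 and 4 without C57.PrESC replicate 2 and 2 and 8 without replicate 1. In the Nodal list 5 of 11 rose and 1 fell, with 2 and 2 without C57.PrESC replicate 1, so that this count rested on that library, and 5 and 0 without replicate 2. Lefty2, the Nodal inhibitor, varied within lines at 0.203 and 8.32 and then 43.6, 4.99, 20.8 and 53.6 CPM, with overlap (log2 fold change 2.77, SE 0.88, adjusted p = 0.0191, 1.86 and not called without C57.PrESC replicate 1 and 7.17 without replicate 2). Of 8 DNA methylation genes 3 rose and 0 fell, among them Tet2, a 5-methylcytosine oxidase, at 68.5 and 63 against 104, 121, 134 and 109.8 (log2 fold change 0.83, SE 0.19, adjusted p = 0.00231). Of 13 CDK inhibitor and p53 genes 6 fell and 0 rose, with 3 and 1 without C57.PrESC replicate 2, and Trp53 itself was at 85.9 and 77.4 against 61.1, 54.6, 51.4 and 44.9 (log2 fold change -0.63, SE 0.14, adjusted p = 0.00176).

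MHC class II genes, which present peptides on antigen-presenting cells, were among the largest rises. H2-Eb1, a class II beta chain at chr17:34305867-34316674, was at 0 and 0.407 CPM in C57.PrESC and at 191, 124, 151 and 204 in the EPZ lines (log2 fold change 9.54, SE 0.58, adjusted p = 2.72e-09, 8.66 without C57.PrESC replicate 1 and 14.61 without replicate 2). The ESC libraries held 0.795, 2.73, 0.364 and 0.577 CPM. H2-Ab1, the other beta chain, was at 0.406 and 0.873 against 102, 77.2, 98 and 134 (log2 fold change 7.27, SE 0.45, adjusted p = 3.10e-09, and 7.95 without C57.PrESC replicate 2), and H2-Aa, its partner chain, at 0.135 and 0.0582 against 5.22, 11.5, 11.1 and 5.66 (ratio 88.7, 95% counting interval 30.4 to 430.2). For all 3 genes every EPZ library was far above both C57.PrESC libraries.

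The rise ran through a block of neighbours and skipped members within it. Between Brd2 and H2-Eb1 (chr17:34112023-34316674, GRCm38) 6 of 10 tested genes rose and 0 fell. Without C57.PrESC replicate 2 there were again 6, with Tap2 called and H2-DMb1 not. H2-DMb1, which encodes a chain of the class II peptide loader, had 0 counts in C57.PrESC and 0.154, 0.312, 0.0687 and 0.0658 CPM in the EPZ lines, and its call was lost without either C57.PrESC library. H2-DMa, which encodes its partner chain, did not pass, at 1.15 and 0.931 and 1.61, 2.18, 1.99 and 1.45 (log2 fold change 0.80, SE 0.35, adjusted p = 0.0779). Psmb9, an immunoproteasome subunit, was at 0.0677 and 1.16 against 83.5, 70.1, 68.5 and 65.6 CPM (log2 fold change 6.78, SE 0.50, adjusted p = 2.37e-08, 5.94 without C57.PrESC replicate 1 and 9.92 without replicate 2), and Tap1, which carries peptides into the endoplasmic reticulum, at 0.948 and 7.85 against 117, 119, 90.7 and 70.1 (log2 fold change 4.44, SE 0.49, adjusted p = 2.23e-06, 3.63 without C57.PrESC replicate 1 and 6.68 without replicate 2). Their gene models overlap on opposite strands, with 225 bases between their RefSeq starts, and their counts were partly fractional, so each carries uncertainty from the other. Their neighbours Psmb8, at 0 and 3.49 and 0.998, 0.936, 0.137 and 1.38 CPM, and Tap2, at 0.0677 and 5.88 and 8.29, 9.36, 4.46 and 2.9, did not pass, although without C57.PrESC replicate 2 Tap2 was called higher (6.27). Brd2 stood at 309.7 and 289.9 and 332, 360.1, 333 and 293. The class I heavy chain genes H2-K1, at 220.4 and 139 against 81.3, 79.6, 62.9 and 75.3 (log2 fold change -1.27, SE 0.14, adjusted p = 1.94e-06), and H2-D1, at 119.8 and 188 against 70.5, 75.8, 61.9 and 75.9 (log2 fold change -1.12, SE 0.20, adjusted p = 3.28e-04), fell. H2-Q7, another class I gene of a family of similar copies, rose, at 0.0677 and 1.86 against 28.5, 48.1, 46.8 and 19.08 (log2 fold change 5.13, SE 0.64, adjusted p = 8.75e-06, 4.25 without C57.PrESC replicate 1 and 8.9 without replicate 2). Of the 10 listed class I pathway genes 2 rose, Psmb9 and Tap1, and 3 fell. It was 4 and 3 without C57.PrESC replicate 2, and 2 and 5 (of 11 tested) without replicate 1.

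Ciita, the coactivator that class II genes are known to need, had 0 counts in C57.PrESC and 0.154, 0.858, 0.618 and 0.395 CPM in the EPZ lines, at least 5.37-fold higher, and it overlaps Dexi. In the RFX complex that binds class II promoters 2 subunits were higher, Rfx5 at 0.203 and 1.57 against 5.84, 3.04, 4.26 and 6.58 (log2 fold change 2.41, SE 0.42, adjusted p = 2.48e-04, 1.64 without C57.PrESC replicate 1 and 4.56 without replicate 2) and Rfxap at 5.82 and 9.83 against 18.3, 15.1, 15.7 and 21.2 (log2 fold change 1.16, SE 0.22, adjusted p = 4.29e-04). The remaining subunit, Rfxank, was called lower, with -0.22 without C57.PrESC replicate 1 and -0.93 without replicate 2. Its call was lost under 5 of the 13 other settings. Cd74, the invariant chain that accompanies class II proteins in antigen-presenting cells, was at 0 and 0 and 0.230, 0, 0 and 0.263 CPM and did not pass (adjusted p = 0.0903). Markers of macrophages, which carry class II, were lower in the EPZ lines in 4 of 7 tested and higher in 0 (2 lower without C57.PrESC replicate 2, and 11 of 11 tested without replicate 1), and Csf1r, the macrophage receptor, was at 3.66 and 4.42 and 0.0768, 0, 0 and 0.461 CPM. Interferon response genes were lower in 6 of 12 tested and higher in 0 (5 and 1 without C57.PrESC replicate 2), such as Oasl2 at 31.8 and 14.9 against 1.23, 3.35, 2.47 and 0.526 (log2 fold change -3.65, SE 0.66, adjusted p = 3.08e-04, and -3.0 without C57.PrESC replicate 1).

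**Figure D3:**
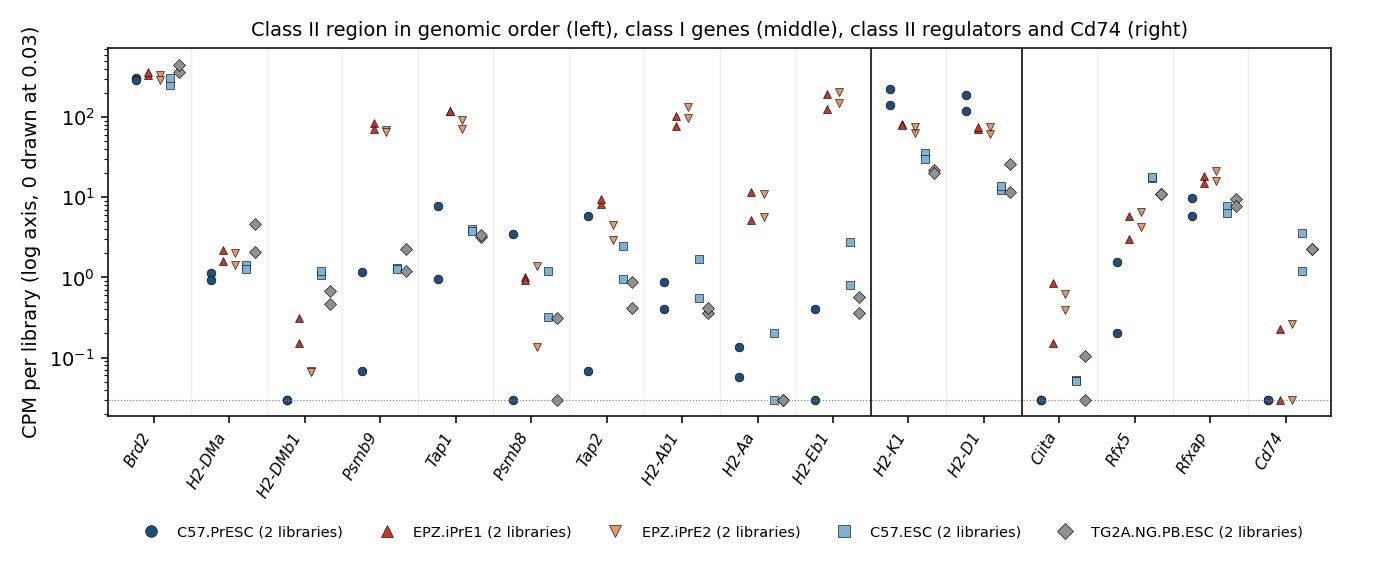
CPM on a log axis, with 0 drawn at 0.03, for genes from Brd2 to H2-Eb1 in genomic order, then class I genes, then class II regulators and Cd74, 1 point per library. The regulators drawn are Ciita, Rfx5 and Rfxap, without Rfxank. Psmb9, Tap1, H2-Ab1, H2-Aa and H2-Eb1 are higher in all EPZ libraries than in all C57.PrESC and ESC libraries, and H2-K1 and H2-D1 are lower than in C57.PrESC.

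The upstream windows of H2-Eb1 and H2-Aa are shown, since such promoters are known for an X box read by RFX and a Y box read by NF-Y. They hold the 250 bases before the RefSeq start on GRCm38.p6, H2-Eb1 at chr17:34305617-34305866 on the plus strand and H2-Aa at chr17:34287824-34288073 on the minus strand. Capitals mark CAACNGATG, part of an X box, and CTGATTGG, a Y box.
H2-Eb1: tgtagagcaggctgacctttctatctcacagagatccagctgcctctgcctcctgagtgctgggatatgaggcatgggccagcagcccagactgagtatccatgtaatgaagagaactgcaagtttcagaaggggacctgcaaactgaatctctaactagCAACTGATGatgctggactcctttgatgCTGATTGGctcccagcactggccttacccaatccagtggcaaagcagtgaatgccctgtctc
H2-Aa: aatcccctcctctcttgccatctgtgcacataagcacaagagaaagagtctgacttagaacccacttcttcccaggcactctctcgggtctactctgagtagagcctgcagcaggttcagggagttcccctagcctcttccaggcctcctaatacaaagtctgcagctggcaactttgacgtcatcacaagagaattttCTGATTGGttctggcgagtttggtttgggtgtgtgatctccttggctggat
CTGATTGG began 62 bases before the start in H2-Eb1 and 51 in H2-Aa, and CAACNGATG began 90 bases before it in H2-Eb1. Over both strands of all 32851 windows CTGATTGG occurred in 3.83% and CAACNGATG in 0.46%. Among genes called at least 2-fold higher the shares were 7.56% and 0.557% and among those called lower 3.85% and 0.342%, against 5.91% and 0.249% over tested genes with a window.

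A zinc finger cluster on chromosome 4 rose as a block. From Gm13230 to Zfp534 (chr4:145446740-147702553, GRCm38) 30 of 42 tested genes rose and 2 fell, and their summed level was 72.2 and 68.9 CPM in C57.PrESC and 519, 584, 667 and 589 in the EPZ lines. In ESCs it was higher in both parents, at 1335 and 1766 in C57.ESC and 1041 and 1271 in TG2A.NG.PB.ESC, with 6 genes up and 20 down between the ESC lines. KRAB zinc finger proteins of such clusters are known as repressors of transposons. Zfp990 was at 1.02 and 1.28 CPM against 222, 199.9, 245 and 242 (log2 fold change 7.61, SE 0.27, adjusted p = 5.45e-12), Rex2 at 0.135 and 0.175 against 11.3, 10.5, 21.2 and 17.3 (log2 fold change 6.47, SE 0.24, adjusted p = 8.45e-12), and Zfp980 at 0.135 and 0 against 15.6, 21.5, 20.3 and 17.2 (ratio 297, 95% counting interval 82.4 to 2456). Zfp982 overlapped at 27.6 and 22.3 and 22.8, 37.8, 41.5 and 31 and did not pass (log2 fold change 0.41, SE 0.36, adjusted p = 0.401), and Zfp987 went down, at 3.93 and 4.77 against 0.691, 1.17, 1.44 and 0.592 (log2 fold change -2.16, SE 0.30, adjusted p = 2.34e-05). These genes are near-identical copies with fractional counts, so each single member is uncertain and the sum less so.

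**Figure D4:**
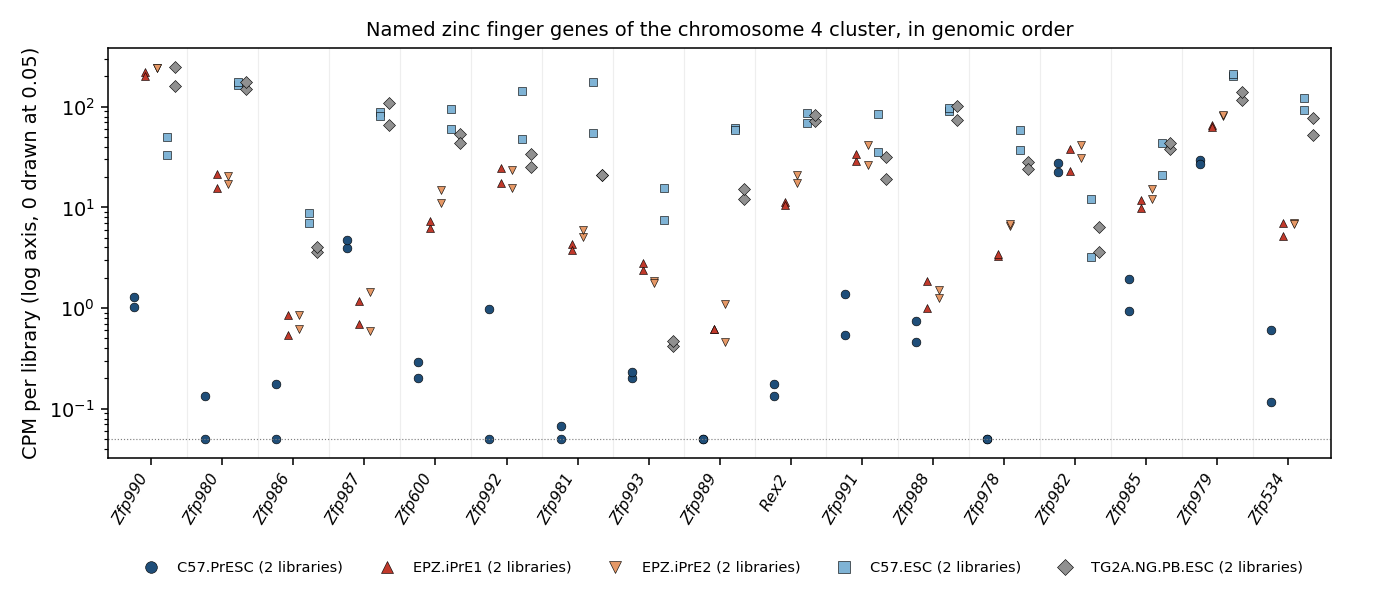
CPM on a log axis, with 0 drawn at 0.05, for the 17 named zinc finger genes of the chromosome 4 cluster in genomic order, 1 point per library. The C57.PrESC points of Zfp990, Zfp980 and Rex2 lie below all EPZ points, those of Zfp987 lie above them, and those of Zfp982 overlap.

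Stretches of 100 bases that end 50 bases before the RefSeq start are shown for 3 of these genes, because the copies share upstream sequence as well. They lie on the plus strand of chromosome 4 (GRCm38.p6) at chr4:147021700-147021799 for Rex2, chr4:147553127-147553226 for Zfp985 and chr4:145670547-145670646 for Zfp980, and capitals mark ATTGGGCGG, which joins an inverted CCAAT to a GC box.
Rex2: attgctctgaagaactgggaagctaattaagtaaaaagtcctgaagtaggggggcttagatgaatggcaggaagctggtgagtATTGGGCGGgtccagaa
Zfp985: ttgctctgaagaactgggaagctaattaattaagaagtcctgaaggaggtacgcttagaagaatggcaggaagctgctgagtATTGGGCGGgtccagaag
Zfp980: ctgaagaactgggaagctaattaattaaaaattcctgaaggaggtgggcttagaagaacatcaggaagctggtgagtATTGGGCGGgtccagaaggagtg
The longest identical run in their 250-base windows was 65 bases for Rex2 and Zfp980 and 42 bases for each other pair. ATTGGGCGG occurred in 7 of the 11 windows found for the 17 named genes and in 0.231% of all windows, counting both strands. It was in 0.498% of the windows of tested genes, 1.035% of those called at least 2-fold higher and 0.599% of those called lower. As the cluster genes are copies, the 7 are not independent occurrences. Zfp985 was at 1.96 and 0.931 against 9.83, 11.9, 15.1 and 12.2 CPM (log2 fold change 3.09, SE 0.31, adjusted p = 9.25e-07, and 3.7 without C57.PrESC replicate 1).

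Other large rises came from genes with few or no counts in C57.PrESC. Col6a5, a collagen VI chain, had 0 counts there and 46.2, 62.9, 174 and 154 CPM in the EPZ lines, at least 1202-fold higher, with more in EPZ.iPrE2 (adjusted p = 0.00552). Serpina3m, a protease inhibitor gene of a multigene family, also had 0 counts and 29, 32, 58.7 and 55.7 CPM (at least 477-fold higher). Cnpy1, which lies beside En2, was at 0.812 and 0.698 against 87.5, 90.2, 114 and 100.5 (log2 fold change 7.01, SE 0.29, adjusted p = 2.03e-11), and En2, a homeobox gene, at 0.203 and 0.582 against 13, 8.35, 15.7 and 13.6 (log2 fold change 4.93, SE 0.42, adjusted p = 1.50e-07, and 5.9 without C57.PrESC replicate 2), while Rbm33 nearby did not pass (log2 fold change 0.25, SE 0.10, adjusted p = 0.0621), though it was called without C57.PrESC replicate 1 (0.45). Cpxm2, a carboxypeptidase-like gene, was at 0.339 and 0.233 against 72.2, 118, 149 and 88.8 (log2 fold change 8.53, SE 0.37, adjusted p = 4.73e-11). Part of the large differences lay close together. Of 908 genes called with a log2 fold change beyond 3 in size and no overlap, 154 lay in 38 runs of 3 or more within 300 kb of each other. The Bhmt, Bhmt2 and Dmgdh genes of betaine metabolism formed one, with a summed level of 3.72 and 5.58 CPM in C57.PrESC and 72.3, 80.9, 87.6 and 81 in the EPZ lines, and the Zfp936 region of chromosome 7 another, at 30.4 and 36.6 and 187, 181, 197 and 181. Some runs held predicted genes with identical values, such as Gm10409 and Gm3020 (both 5.33), so 1 signal may be counted as several genes. The share in runs expected over all tested genes was not computed, and nothing is read from the count.

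The largest falls after Hprt included Cttnbp2, Dhdh, Capn6, Car4, Dkkl1 and Gpc4. Car4, a membrane carbonic anhydrase, was at 98.5 and 115 CPM in C57.PrESC and 2.46, 4.37, 1.85 and 0.921 in the EPZ lines (log2 fold change -5.62, SE 0.35, adjusted p = 4.31e-09). Gpc4, a glypican coreceptor, was at 42.6 and 36.2 against 1.38, 0.468, 1.03 and 2.3 (log2 fold change -4.97, SE 0.27, adjusted p = 5.28e-10), with 39.8, 35.4, 25.4 and 24.8 in ESCs, and Capn6, an X-linked calpain, at 38.2 and 14.5 against 0.307, 0.234, 1.1 and 0.329 (log2 fold change -5.88, SE 0.51, adjusted p = 1.51e-07, and -5.03 without C57.PrESC replicate 1). Cttnbp2, a cortactin-binding protein, was at 32.6 and 10.8 against 0.154, 0.234, 0.0687 and 0.0658 (log2 fold change -7.48, SE 0.51, adjusted p = 1.07e-08, and -6.47 without C57.PrESC replicate 1). Dhdh and Dkkl1 fell in a stretch of chromosome 7 with 15 of 45 tested genes down and 5 up, Dkkl1 at 40.2 and 33.3 against 2.07, 0.468, 0.137 and 0.987 (log2 fold change -5.42, SE 0.55, adjusted p = 8.92e-07).

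Imprinted genes went both ways, and the share that rose was near the 20.6% over all genes, where 20.1% fell. Igf2r, the receptor that clears IGF2, was at 63.4 and 160.0 CPM in C57.PrESC and 611, 622, 815 and 795 in the EPZ lines, with no overlap (log2 fold change 2.65, SE 0.27, adjusted p = 9.24e-07, and 3.48 without C57.PrESC replicate 2), and overlaps the antisense RNA Airn, which did not pass at 17.5 and 11.5 and 8.06, 8.04, 5.22 and 8.09 CPM (log2 fold change -0.98, SE 0.46, adjusted p = 0.105). Igf2, its ligand, was lower at 75.3 and 189 against 46.2, 33.7, 27.7 and 38.6 (log2 fold change -1.86, SE 0.42, adjusted p = 0.00211, and -1.04 and not called without C57.PrESC replicate 2). Grb10, a growth suppressor, was at 10.7 and 41.7 against 125, 144, 103 and 115 (log2 fold change 2.2, SE 0.35, adjusted p = 8.90e-05, 1.54 without C57.PrESC replicate 1 and 3.51 without replicate 2) and differed the same way in ESCs (log2 fold change 2.07). Peg3, at 367 and 336 against 130.5, 132, 134 and 160.4 (log2 fold change -1.34, SE 0.15, adjusted p = 2.18e-06), did so in the other direction, by -5.21 in ESCs. Mest was high in EPZ.iPrE1 alone, at 0 and 1.28 and 37.5, 18.5, 0.893 and 0.987 CPM. Xist, the X-inactivation RNA, was at 190.1 and 186 against 76.6, 69.8, 25.8 and 24.9 (log2 fold change -2.13, SE 0.26, adjusted p = 6.54e-06) and overlaps Tsix. Of 24 genes 5 rose and 8 fell, with 7 and 4 without C57.PrESC replicate 2. None of the 6 Dlk1-Dio3 genes tested was called, and 3 were called higher without that library.

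Within the glycolysis list the largest step was in Pfkp, and lysosomal genes were more often lower than higher. Over all genes 20.6% rose and 20.1% fell, and the list counts that follow stand beside those shares. Pfkp, the platelet form of phosphofructokinase, was at 95.9 and 157 CPM against 749, 559, 870.4 and 1454, all higher (log2 fold change 2.79, SE 0.27, adjusted p = 6.83e-07), and it overlaps Pitrm1. Among 16 glycolysis genes 4 rose and 1 fell, and 7 rose and 0 fell without C57.PrESC replicate 2. Of 15 lysosome genes 7 fell and 1 rose, with 3 and 2 without that library. Ctsz, a cathepsin, was at 734 and 720.4 against 264, 302, 324 and 311, with no overlap (log2 fold change -1.28, SE 0.11, adjusted p = 9.97e-08). Of 12 genes of the unfolded protein and amino acid responses 4 fell and 1 rose. Trib3, a stress response gene of the ATF4 pathway, was at 65.5 and 22.5 against 5.99, 19.97, 5.84 and 5.26 (log2 fold change -2.37, SE 0.35, adjusted p = 4.61e-05, and -1.4 without C57.PrESC replicate 1).

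Genes on chromosomes 14, 16 and 19 were lower as groups. Over genes at 5 CPM or more the median log2 fold change was -0.64 on chromosome 14 (346 genes), -0.35 on 16 (333) and -0.55 on 19 (356), and lay between -0.03 and 0.10 on the other autosomes and the X. On these 3 chromosomes 771 of 1661 tested genes fell and 152 rose, while elsewhere 2707 of 15519 fell and 3391 rose. Levels per library are given as the median over genes of the log2 deviation from the mean of the 10 group means. Each library's median deviation over the genes of all chromosomes was subtracted. On this scale chromosome 19 genes stood at 0.58 and 0.52 in the C57.PrESC libraries and between -0.19 and 0.02 in the other 20. Chromosome 16 genes stood at 0.32 and 0.36 in C57.PrESC and at or below 0.08 elsewhere, C57.ESC included. Chromosome 14 genes were high in C57.ESC too, at 0.44 and 0.36, and stood at 0.45 and 0.45 in C57.PrESC, near 0 in EPZ.iPrE1 (-0.01 and -0.03) and at -0.31 and -0.31 in EPZ.iPrE2. DNA copy number was not measured, so its part in these differences was not tested. Leaving out the 3 chromosomes, 3391 genes were called higher and 2707 lower.

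**Figure D5:**
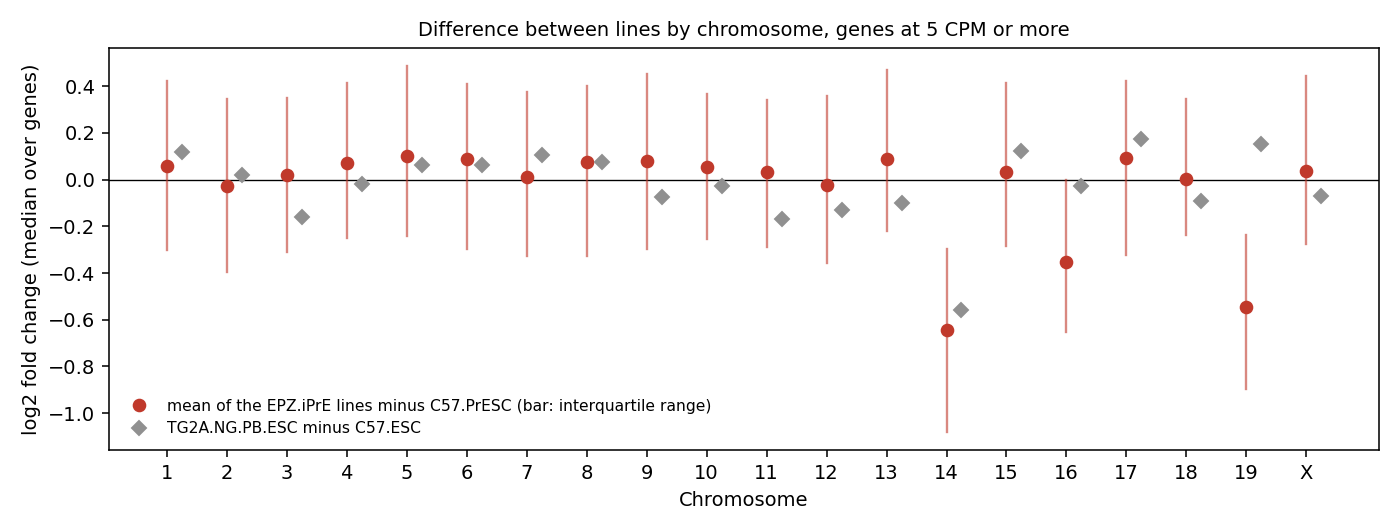
Median log2 fold change by chromosome over genes at 5 CPM or more, for the mean of the EPZ lines minus C57.PrESC (circles, with bars over the interquartile range of genes) and for TG2A.NG.PB.ESC minus C57.ESC (diamonds). Chromosomes 14, 16 and 19 lie at -0.64, -0.35 and -0.55 in PrE cells, and only chromosome 14 lies as low in ESCs, at -0.56.

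The contrast between ESCs of the 2 labelled parents, which shares no library with the PrE contrast, called 6831 genes (38.9%). Of the 3623 genes higher in the EPZ lines 1021 were also higher in TG2A.NG.PB.ESC, which is 28.2% of the first list and 30.4% of the second. A further 719 were lower there, 19.8% of the first list, which is the share over all genes. Of the 3527 lower genes 1005 were lower in both, 28.5% and 28.9% of the lists, and 538 were higher in the ESCs. The summed fibroblast markers stood at 49.6 and 463 CPM in C57.ESC replicates 1 and 2 and at 58.9 and 39.5 in TG2A.NG.PB.ESC. Replicate 2 of the C57 libraries was thus the higher one in both contrasts. The part of other cells in the shared lower genes was not tested. Besides Hprt, shared differences included Rps3a3, a ribosomal protein copy with fractional counts, at 0 and 4.01 against 370.4, 360.1, 366 and 381 CPM in PrE cells and 0.0530 and 1.77 against 356 and 455 in ESCs. Atp5e, an ATP synthase subunit, was at 97.2 and 95.7 against 3.53, 3.04, 4.53 and 2.9 in PrE cells and at 37.6 and 29.5 against 2.13 and 3.35 in ESCs. A test of the difference between the PrE and ESC contrasts called 6167 genes (35.1%), among them 2019 of the higher and 1596 of the lower PrE calls in the same direction. H2-Eb1, Lrp2, Jarid2, Socs3, Nkd1 and Igf2r were among the genes that departed from the ESC contrast, with adjusted p of 9.99e-08, 6.15e-06, 6.83e-06, 3.43e-04, 1.51e-04 and 4.86e-06.

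By line, EPZ.iPrE1 differed from C57.PrESC at 6225 genes (35.5%) and EPZ.iPrE2 at 6019 (34.3%), and both contrasts share the C57.PrESC libraries. Lrp2 had log2 fold changes of -4.88 in EPZ.iPrE1 and -3.61 in EPZ.iPrE2, Jarid2 1.5 and 1.29, and Socs3 2.41 and 2.7. Between the EPZ lines 307 genes were higher (1.75%) and 379 lower (2.16%) in EPZ.iPrE2. The Y-linked genes were among the lower ones, with Eif2s3y at 162, 197, 58 and 51.8 CPM (adjusted p = 4.86e-04), as were Mest (adjusted p = 1.02e-04) and the PRC1 gene Cbx7 at 43.7, 33.4, 8.31 and 11.4 CPM (adjusted p = 1.64e-06).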

How the data were processed

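RNA-seq of 22 mouse libraries in 10 groups was used as 1 table of estimated counts for 55367 gene symbols, deposited by the authors with no normalization; values need not be whole. Per the submitters' processing notes Trim Galore, STAR 2.7.6a, DESeq2 and mm10 were used; not given in the sources used here are the counting tool, its annotation and its use of strand. Per the labels' protocols total RNA was extracted with Trizol and depleted of ribosomal RNA, while the molecule label names polyA RNA. The planned count test was kept after rounding the estimated counts to whole numbers.

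Symbols were kept by filterByExpr over groups (17547 genes), scaled by TMM, and fitted with edgeR 4.0.16 (glmQLFit, glmQLFTest, 1 coefficient per group over all 22 libraries, 12 residual degrees of freedom) in R 4.3.3 with limma 3.58.1. P-values were adjusted by Benjamini and Hochberg over all genes tested. The model was tested on simulated data for the EPZ against C57.PrESC comparison (17222 genes), where 77% of 100 genes changed 2-fold and 95% of 100 changed 4-fold were recovered and 8 of 17022 unchanged genes were called. The counts were drawn from the model's own spread, and the changed genes from those at 5 CPM or more. The simulation therefore cannot show recovery of lower genes or the effect of an excess like that of C57.PrESC replicate 2. Positions came from GENCODE M21 (17180 genes matched once) and upstream windows from RefSeq GRCm38.p6 (12459 of the 17547 tested genes matched). A fold against 0 counts was computed against 3 counts over the group. Ratios on 1 to 3 counts carry 95% exact intervals that cover counting error only.

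The libraries, gene lists and members were chosen with earlier results of these data known. Named genes are all tested PrE transcription factors, PRC2 subunits and line landmarks, up to 4 called members with the largest change in each other list and members against their list's direction, and the 15 largest rises and 15 largest falls that reach a mean of 10 CPM on the higher side without overlap of libraries. Further members, the class II and zinc finger genes among them, were chosen after their values were seen. Alternatives were RLE size factors, DESeq2 1.42.0, no filter, only the groups compared, the EPZ libraries as 1 group, another E14 ESC group, a replicate block and leaving out each library. Chosen after seeing the data were the block with crossed numbers, list counts without each C57.PrESC library and leaving out chromosomes 14, 16 and 19. Other groups were used to estimate the spread, in the filter and scaling, as the alternative ESC group, and for the chromosome and region levels. A few genes that the rule names are not reported here.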

Additional observations from a re-analysis of the deposited data

Results flagged for a closer look

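Of 236 named genes tested, 29 (12.3%) were called in opposite directions in PrE cells (EPZ lines less C57.PrESC) and in ESCs (TG2A.NG.PB.ESC less C57.ESC), against 7.16% of all genes tested. The named genes were chosen largely by their change in PrE cells, so nothing is read from that share. Beside the 21 of them that the text names stands the difference between both log2 fold changes from edgeR's test, which is also called for every one of the 1257 genes with opposite calls and so selects no further. The values in parentheses are the log2 fold changes in PrE cells and in ESCs and the adjusted p of the difference.

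H2-Eb1 gave a difference of 11.44 (9.54 and -1.90, adjusted p = 9.99e-08), Igf2r 3.395 (2.655 and -0.74, adjusted p = 4.86e-06), Pfkp 3.93 (2.79 and -1.14, adjusted p = 1.45e-06) and Pim1 2.42 (1.41 and -1.01, adjusted p = 1.10e-04). Tcf7 gave 2.31 (1.40 and -0.90, adjusted p = 3.00e-05), Tet2 1.73 (0.83 and -0.90, adjusted p = 2.00e-04) and Eomes 2.66 (1.15 and -1.52, adjusted p = 0.00275). Mest gave 5.33 (2.91 and -2.42, adjusted p = 5.84e-05) and Tfap2c 5.015 (2.82 and -2.195, adjusted p = 7.22e-05), both high in EPZ.iPrE1 alone among the PrE libraries. The PrE value of Mest was 2.00 without C57.PrESC replicate 1 and 9.58 without replicate 2, and that of Tfap2c 2.38 and 3.60. Col6a5 gave 15.81 (13.77 and -2.04, adjusted p = 7.11e-09), Serpina3m 17.33 (12.59 and -4.74, adjusted p = 3.70e-08), Dppa3 12.41 (9.23 and -3.17, adjusted p = 4.31e-04), Hand1 11.82 (8.60 and -3.22, adjusted p = 1.29e-05) and Cldn3 7.17 (4.77 and -2.405, adjusted p = 6.28e-04), and as these 5 had 0 counts in C57.PrESC their fitted values depend on the prior count.

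In the falling direction Myc gave -3.37 (-2.15 and 1.22, adjusted p = 1.58e-07), Fgf3 -3.42 (-2.29 and 1.13, adjusted p = 5.15e-05), Nid2 -1.85 (-1.27 and 0.57, adjusted p = 3.19e-07), Epop -1.58 (-0.64 and 0.93, adjusted p = 1.20e-04) and Phf1 -1.59 (-0.71 and 0.88, adjusted p = 2.91e-04). The Y-linked genes Ddx3y, at -6.15 (-1.27 and 4.88, adjusted p = 8.14e-07), and Eif2s3y, at -7.39 (-0.59 and 6.80, adjusted p = 2.56e-09), had 0.0530 and 2.98 and 0.106 and 1.31 CPM in C57.ESC, respectively. Of these, the PrE calls of Eomes, Phf1 and Eif2s3y were lost without C57.PrESC replicate 1, and that of Cldn3 without either C57.PrESC library. No labelled group of libraries was large enough for a test of outlying samples.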

How the results depend on the processing

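The EPZ against C57.PrESC count of 7150 genes was 7181 with RLE size factors, 7167 without a filter, 7180 with DESeq2, 5970 to 6715 without 1 library, and 6098 off chromosomes 14, 16 and 19. It fell to 4445 with only the compared groups in the fit and 4156 with the EPZ libraries as 1 group. These fits have fewer samples and take the spread from the compared libraries alone, and the cause of the drop was not tested. With only the compared groups EPZ.iPrE1 had 2312 calls, EPZ.iPrE2 2277, the ESC contrast 1692 and the PrE less ESC difference 3041. EPZ.iPrE2 against EPZ.iPrE1 (686) had 1143 without a filter, 1063 with DESeq2, 28 with only the compared groups and 379 to 407 without 1 library, and the cause of the first pair was not tested. The replicate numbers did not pair the samples: deviations of same-numbered libraries correlated at -0.31 (C57.PrESC and EPZ.iPrE1), 0.38 (C57.PrESC and EPZ.iPrE2) and -0.36 (both EPZ lines). A replicate block gave 6745 calls for the main comparison, 5810 and 5613 for EPZ.iPrE1 and EPZ.iPrE2, 582 between them, 6403 in ESCs and 5843 for the difference, and crossed numbers in EPZ.iPrE1 gave 6951 in the main comparison.

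Of 202 named genes called, 119 were called in every setting that tested them, 28 were lost without C57.PrESC replicate 2 and 31 without replicate 1. Leaving out 1 library at a time, the values ranged, with the highest without C57.PrESC replicate 2, for Axl (-4.35 to 3.01), Cdh11 (-4.57 to 1.34), Cdkn1c (-3.04 to 3.75), Col1a1 (-4.20 to 2.38), Crabp1 (-4.95 to 3.17), Fbln2 (-4.23 to 2.61), Fn1 (-3.61 to 2.95), Grem1 (-7.71 to 3.18), Hand2 (-6.455 to 0), Hoxc8 (-5.47 to 2.295), Inhbb (-4.23 to 2.59), Lum (-4.87 to 2.48), Lyz2 (-5.89 to 0.25), Map2 (-2.70 to 1.51), Pdgfc (-3.40 to 2.19), Thy1 (-5.52 to 2.30), Vim (-4.24 to 1.72) and Wnt5a (-4.40 to 3.785). Cldn3, near 0 CPM in the 6 PrE libraries, turned to -1.535 with only the compared groups and -1.49 with the EPZ libraries as 1 group. Genes at 0 to 3 counts in C57.PrESC are limited by depth to bounds or wide ratios.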
